A study of Mus musculus with 6 samples.

Results

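Genes of the hepatoblast and of the proteins the liver secretes were followed in cells of the *Pdx1* lineage at E10.5, in embryos with and without *mir-302*. The 10 genes were taken by name, but with earlier results of these data known. The genes were *Afp*, *Alb*, *Ttr*, *Trf*, *Apoa1*, *Apoa2*, *Apob*, *Apom*, *Fgb* and *Hnf4a*. They are 10 of the 55414 genes listed in the count table and 10 of the 16353 that passed the filter on low counts. Each identifier matched 1 symbol, and no member was lost.

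The cells came from mouse embryos that all carried the *Pdx1-Cre* transgene and a tdTomato reporter (Pdx1-Cre+, Tdtomato+). The embryos were miR-302WT in 3 libraries (WT) and miR-302KO in the other 3 (KO), all at E10.5. The parents were heterozygous for the deletion, so every cell of a KO embryo lacked *mir-302*, not only the labelled ones. Labelled cells were sorted from the dissociated trunk, and a cell keeps the label after *Pdx1* is switched off. The sources used here do not give whether a library is 1 embryo or several. The p-values therefore set each difference against the spread between these libraries, which may be in part technical.

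The liver and the ventral pancreas arise side by side from the ventral foregut endoderm. Hepatoblasts, the common precursors of hepatocytes and bile duct cells, start to make plasma proteins early, and alpha-fetoprotein is abundant among them long before albumin takes its place. A network of liver-enriched transcription factors, among them HNF4A, HNF1 and FOXA proteins, binds the promoters of these genes. Several of the 10 genes are also active in the yolk sac and in gut endoderm, so their RNA alone does not name a cell type.

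*Afp* and *Alb* are neighbours on mouse chromosome 5, and the start of *Afp* lies 29844 bases beyond that of *Alb*. Their proximal promoters and that of *Apoa2* are shown because these 3 genes varied most between the libraries described below. The sequences are the 250 bases before each RefSeq start in GRCm38.p6, all on the plus strand, at chr5:90490464-90490713 for *Afp*, chr5:90460620-90460869 for *Alb* and chr1:171224804-171225053 for *Apoa2*. Capitals mark GTTAAT, part of the HNF1 motif, TGTTTAC, a forkhead (FOXA) motif, and TATAAA, the letters of a TATA box.
Afp: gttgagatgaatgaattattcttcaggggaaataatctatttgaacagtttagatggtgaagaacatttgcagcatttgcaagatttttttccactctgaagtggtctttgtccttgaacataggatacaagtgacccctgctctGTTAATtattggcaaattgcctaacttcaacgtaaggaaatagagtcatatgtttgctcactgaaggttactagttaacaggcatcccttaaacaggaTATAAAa
Alb: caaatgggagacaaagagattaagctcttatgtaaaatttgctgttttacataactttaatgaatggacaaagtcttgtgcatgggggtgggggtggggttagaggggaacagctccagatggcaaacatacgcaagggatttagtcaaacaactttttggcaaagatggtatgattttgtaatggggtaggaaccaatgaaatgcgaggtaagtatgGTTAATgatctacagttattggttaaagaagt
Apoa2: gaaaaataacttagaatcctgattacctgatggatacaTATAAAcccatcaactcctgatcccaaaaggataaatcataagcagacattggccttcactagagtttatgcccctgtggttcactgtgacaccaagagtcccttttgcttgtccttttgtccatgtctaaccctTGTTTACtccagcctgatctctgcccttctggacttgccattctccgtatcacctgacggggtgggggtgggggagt

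GTTAAT stood 105 bases before the start of *Afp* and 32 bases before that of *Alb*. It was also found before the start of *Fgb* and before the second of the starts listed for *Hnf4a*. Read on both strands, 6.43% of the 32851 promoters in the table held it. TGTTTAC stood 77 bases before the start of *Apoa2*, and 3.17% of all promoters held it. TATAAA was found 7 bases before the start of *Afp*, 212 before that of *Apoa2* and 60 before that of *Apob*, and in 12.4% of all promoters. AGGTCA, a nuclear receptor half-site, was found before the second start of *Apoa2*, and in 14.0% of all promoters. No matches overlapped. The table held 8 of the 10 members. *Ttr* and *Trf* had no entry.

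The deleted cluster encodes several microRNAs, which pair with 3′UTRs mainly through their seed (bases 2 to 8). The mature strands of miR-302b and miR-302d share a seed and are shown with it in capitals, as RefSeq gives them on chromosome 3 in GRCm38.p6. The strand listed for miR-302c has AGUGCUU at these bases. Matches to it and to other microRNAs of the cluster were not searched.
mmu-miR-302b-3p: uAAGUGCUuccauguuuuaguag
mmu-miR-302d-3p: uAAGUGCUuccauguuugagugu
A 7-base match to this seed was present in 1 of the 10 members when the longest 3′UTR annotated by GENCODE M21 was searched. That member was *Hnf4a*, and the match is shown in capitals within its surroundings.
Hnf4a: gactcacaggaAGCACTTgtcccccctgg
Of the 13768 tested genes with a 3′UTR, 20.6% held such a match or GCACTTA. The latter pairs with bases 2 to 7 of the microRNA and ends in an A, and no member held it. The 3′UTRs of *Apoa1*, *Apoa2*, *Apom*, *Alb* and *Afp* are short, at 64 to 201 bases.

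Total counts per library ran from 17352498 to 26634523. The messenger RNA counts could not check the genotype, since *Mir302a*, *Mir302b*, *Mir302c* and *Mir367* had no counts. *Mir302d* had none either except for 2 counts, in the library labelled KO replicate 3. Some libraries stood apart in markers of other cells. Summed over 6 mesenchyme markers, the level was 490, 174 and 1030 CPM (counts per 1000000 counts of the library, after TMM scaling) in WT replicates 1 to 3 and 988, 35.8 and 1000.4 CPM in KO replicates 1 to 3. Of the 6 markers, 4 were at 0 in KO replicate 2. The 8 primitive erythroid markers summed to 13455 CPM in WT replicate 3, 5311 CPM in KO replicate 1 and 289 CPM in KO replicate 3, against 1.03 to 3.18 CPM in the other libraries. The 6 endothelial markers summed to 1.48 CPM in KO replicate 2, where 4 were at 0, and to 4.01 to 26.1 CPM elsewhere. The 10 pancreatic progenitor markers differed less, between 673 and 780 CPM in WT and between 793 and 900 CPM in KO, and none was at 0 in any library. The KO sums were thus all above the WT sums. *Gata4*, the marker with the highest mean, was at 173, 249 and 222 CPM in WT and 342, 334 and 322 CPM in KO. By the fit, 5 of the 10 markers were higher in KO and 5 lower. Of these 10 markers, 5 were highest in KO replicate 2, but the share of all genes highest in that library was not counted.

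The labels give the tissue as pancreas and the cells as pancreatic progenitors, and liver genes were present beside the pancreatic ones. *Afp*, *Alb*, *Ttr*, *Apoa1*, *Hnf4a*, *Dlk1*, *Hhex* and *Prox1*, the hepatoblast markers, all passed the filter, as did 16353 genes in all. Passing it does not name a cell type. Among these markers, *Afp*, *Alb* and *Hhex* were lowest in KO replicate 2, and the others were not. Other liver products were near 0 in all libraries: *Apoc2* had no counts, and *Ahsg*, *Apoa4* and *Apoh* were at most at 0.236 CPM. The members summed to 1878, 2557 and 1208 CPM in the WT libraries and to 1965, 1033 and 2885 CPM in the KO libraries. The genotypes overlapped. In sorted bulk RNA, fewer liver-type cells and less RNA per cell cannot be told apart.

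**Figure D1:**
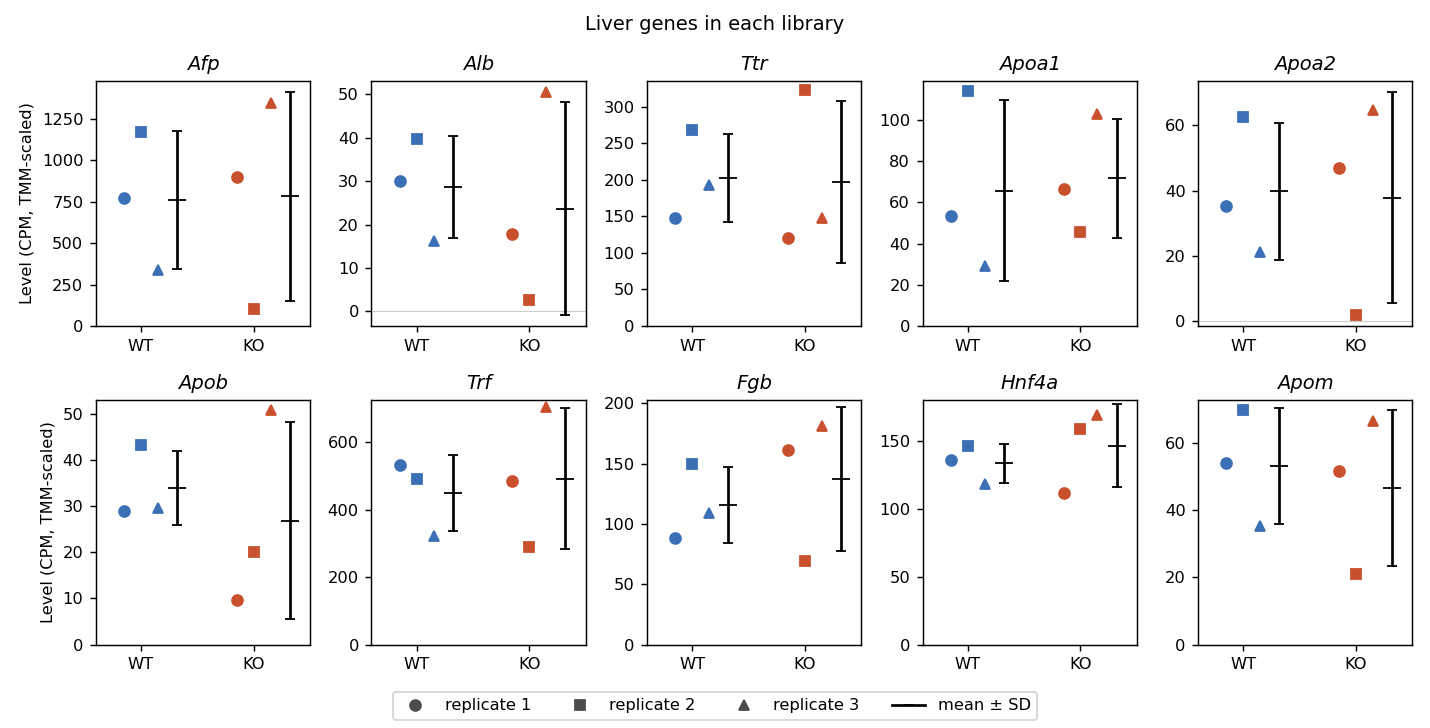
Level of each of the 10 liver genes in CPM after TMM scaling, in the 3 WT libraries (blue) and the 3 KO libraries (orange), with the replicate given by the marker shape and the mean ± SD beside it. KO replicate 2 (orange square) was lowest for *Afp*, *Alb*, *Apoa2*, *Trf*, *Fgb* and *Apom* and highest for *Ttr*, and the genotypes overlapped in all 10 panels.

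Per kilobase of transcript, *Afp* was the most abundant member, at 374 ± 232 CPM per kb (SD, n = 6 libraries), above the next gene in 5 of 6 libraries. *Trf* at 183 ± 59.0 and *Ttr* at 168 ± 67.2 CPM per kb came next and were not separated, *Trf* being above *Ttr* in 3 of 6. *Apoa2* (75.0 ± 47.1), *Apoa1* (66.3 ± 32.3) and *Apom* (49.2 ± 18.5) followed, with *Apoa2* above *Apoa1* in 5 of 6 libraries and *Apoa1* above *Apom* in 4. *Fgb* (33.2 ± 11.6) and *Hnf4a* (32.1 ± 5.17) were close, with *Fgb* above in 4 of 6. *Alb* stood at 12.9 ± 8.53 CPM per kb and *Apob*, whose transcript is very long, at 2.18 ± 1.07. *Ttr* was above *Apoa2*, *Apom* above *Fgb* and *Hnf4a* above *Alb* in all 6 libraries. This order of neighbours did not extend to all pairs. In KO replicate 2, *Hnf4a* (36.4 CPM per kb) was above *Apom* (20.8) and *Apoa2* (3.85).

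No member differed detectably between KO and WT. In the edgeR fit, with p-values adjusted over all genes tested by the method of Benjamini and Hochberg, 0 of the 10 members reached an adjusted p under 0.05, as did 0 of the 16353 genes (0.0%). At an unadjusted p under 0.05, there were 0 members against 1700 genes (10.4%). DESeq2 called 0 members and 699 of the 14353 genes to which it gave an adjusted p (4.87%). The smallest unadjusted p of a member was 0.435. By the fit, 5 members were higher in KO and 5 lower, and their median log2 fold change was 0.00010 beside -0.02 over all genes tested. The 3 KO libraries lay all above or all below the 3 WT libraries for 0 members, and for 16.4% of all genes tested. For 4 members (*Afp*, *Alb*, *Apoa1* and *Apoa2*) the 95% interval reached from under -1 to over 1 on the log2 scale, so that differences of that size in either direction were not excluded.

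*Afp* (ENSMUSG00000054932.7) encodes alpha-fetoprotein, the main plasma carrier of the fetus. It was at 772, 1173 and 336 CPM in WT replicates 1 to 3 and at 896, 102 and 1347 CPM in KO replicates 1 to 3. KO replicate 2 was below every other library, and KO replicate 3 above. The means were 760 ± 418 in WT and 782 ± 631 CPM in KO (mean and SD of 3 libraries each). The log2 fold change was 0.04 (standard error 0.81, 95% interval -1.87 to 1.95, adjusted p = 0.994). Without KO replicate 2 it was 0.58 (-0.52 to 1.68), and without KO replicate 3 it was -0.57 (-2.74 to 1.60).

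*Alb* (ENSMUSG00000029368.11), the gene of albumin, was much lower. Its levels were 29.9, 39.7 and 16.3 CPM in WT and 17.9, 2.62 and 50.4 CPM in KO. As for *Afp*, KO replicate 2 was lowest and KO replicate 3 highest. The 2.62 CPM rested on 46 counts, with an exact Poisson 95% interval of 1.92 to 3.50 CPM that covers counting error only. WT averaged 28.6 ± 11.7 CPM and KO 23.6 ± 24.4 CPM, and the log2 fold change was -0.28 (standard error 0.84, -2.25 to 1.70, adjusted p = 0.958). Without KO replicate 2 the sign turned, to 0.26 (-0.91 to 1.43), and without KO replicate 3 the value was -1.43 (-3.31 to 0.45). Each library held far more *Afp* than *Alb* counts, with a ratio of 25.8, 29.6 and 20.6 in WT and 50.2, 38.9 and 26.7 in KO.

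*Ttr* (ENSMUSG00000061808.5), which encodes the thyroxine carrier transthyretin, ran the other way. It was at 147, 268 and 193 CPM in WT and 120, 323 and 148 CPM in KO. Here KO replicate 2 was the highest of all libraries. The means of 203 ± 60.7 and 197 ± 110.3 CPM gave a log2 fold change of -0.04 (standard error 0.39, -0.94 to 0.86, adjusted p = 0.987). Leaving out KO replicate 2 moved it to -0.58 (-1.16 to -0.01), with an adjusted p of 0.423.

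*Trf* (ENSMUSG00000032554.16) encodes the iron carrier transferrin. It was at 532, 491 and 321 CPM in WT and 483, 288 and 705 CPM in KO. The extremes were again KO replicates 2 and 3, but they lay only 2.45-fold apart. The log2 fold change was 0.13 (standard error 0.33, -0.63 to 0.90, adjusted p = 0.947). Exons of *Trf* overlap those of the annotated gene *Gm20425* on the same strand, and how shared reads were counted is not given, so the level of *Trf* is uncertain.

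The apolipoproteins, which carry lipids in plasma, followed *Afp* to different degrees. *Apoa2* (ENSMUSG00000005681.13), a protein of high-density lipoprotein, was at 35.4, 62.7 and 21.4 CPM in WT and at 47.1, 1.99 and 64.6 CPM in KO. The value in KO replicate 2 came from 35 counts (1.39 to 2.77 CPM, exact Poisson 95% interval), and the other libraries had a median 23.6-fold higher. The log2 fold change was -0.07 (standard error 0.94, -2.28 to 2.14, adjusted p = 0.991), 0.50 (-0.47 to 1.48) without KO replicate 2 and -0.65 (-3.26 to 1.97) without KO replicate 3.

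*Apoa1* (ENSMUSG00000032083.9), the main protein of high-density lipoprotein, did not have its lowest value in KO replicate 2. It was at 53.4, 114 and 28.9 CPM in WT and 66.7, 45.7 and 103 CPM in KO. WT replicate 3 was lowest and WT replicate 2 highest, so that the WT libraries spanned the whole range. Its log2 fold change was 0.13 (standard error 0.50, -1.03 to 1.30, adjusted p = 0.967). It was 0.82 (-0.12 to 1.76) without WT replicate 2 and -0.19 (-1.21 to 0.83) without WT replicate 3.

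*Apob* (ENSMUSG00000020609.15), the structural protein of very-low-density lipoprotein, was at 29.0, 43.2 and 29.7 CPM in WT and 9.65, 20.1 and 50.9 CPM in KO. KO replicate 1 was lowest here. The log2 fold change was -0.34 (standard error 0.54, -1.60 to 0.92, adjusted p = 0.916). It was 0.070 without KO replicate 1. Without KO replicate 3 it was -1.16 (-2.02 to -0.30), with an adjusted p of 0.272 that was the smallest of any member in any setting. *Apom* (ENSMUSG00000024391.8), the carrier of sphingosine 1-phosphate, was at 54.2, 70.0 and 35.3 CPM in WT and 51.8, 21.1 and 66.7 CPM in KO, with KO replicate 2 lowest. Its log2 fold change was -0.19 (standard error 0.42, -1.17 to 0.79, adjusted p = 0.939).

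*Fgb* (ENSMUSG00000033831.6) encodes the beta chain of fibrinogen, the clotting protein. It was at 88.4, 149.7 and 109 CPM in WT and 161, 69.2 and 181 CPM in KO. KO replicates 1 and 3 were above every WT library and KO replicate 2 below. The log2 fold change was 0.25 (standard error 0.35, -0.58 to 1.07, adjusted p = 0.899). Without KO replicate 2 it was 0.58 (0.09 to 1.07) with an adjusted p of 0.333, and *Fgb* was then the 1 member of 10 whose genotypes did not overlap, where 28.7% of all genes tested did not.

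*Hnf4a* (ENSMUSG00000017950.17), the nuclear receptor that drives many liver genes and is also made in gut and early pancreatic endoderm, was the steadiest. It was at 136, 146 and 118 CPM in WT and 112, 159 and 169 CPM in KO. KO replicate 2, low for most of the secreted proteins, was second highest for *Hnf4a*. The means of 133 ± 14.4 and 146 ± 30.6 CPM gave a log2 fold change of 0.13 (standard error 0.16, -0.25 to 0.52, adjusted p = 0.872). Without KO replicate 1 it was 0.31 (0.04 to 0.58), with an adjusted p of 0.577.

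**Figure D2:**
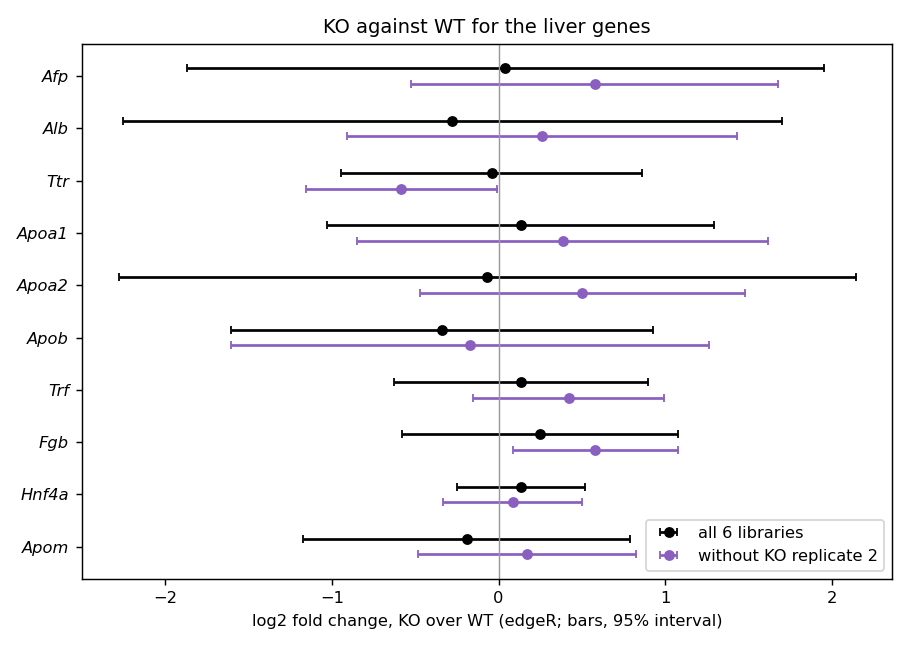
Log2 fold change of KO over WT for each liver gene with its 95% interval from edgeR, over all 6 libraries (black) and without KO replicate 2 (purple). The black intervals all include 0, from the narrow one of *Hnf4a* (-0.25 to 0.52) to the wide one of *Apoa2* (-2.28 to 2.14), and of the purple ones those of *Ttr* and *Fgb* exclude 0.

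Most members varied more between libraries than most other genes did. The SD of log2(CPM + 0.5) over the 6 libraries was 1.78 for *Apoa2*, 1.45 for *Alb* and 1.41 for *Afp*, larger than in 99.66%, 99.36% and 99.26% of the genes tested, whose median was 0.237. In all, 6 of the 10 members exceeded 90% of the genes and 4 exceeded 95%. *Hnf4a*, at 0.24, exceeded 49.69%. From the lowest to the highest library, *Apoa2* varied 32.4-fold, *Alb* 19.2-fold and *Afp* 13.2-fold, *Ttr* 2.70-fold, *Fgb* 2.61-fold and *Hnf4a* 1.51-fold. The spread was also wide within WT. Among the 3 WT libraries, *Apoa1* varied 3.95-fold, *Afp* 3.49-fold, *Apoa2* 2.94-fold and *Alb* 2.43-fold, with a larger SD than 98.21%, 97.69%, 95.88% and 92.97% of the genes.

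**Figure D3:**
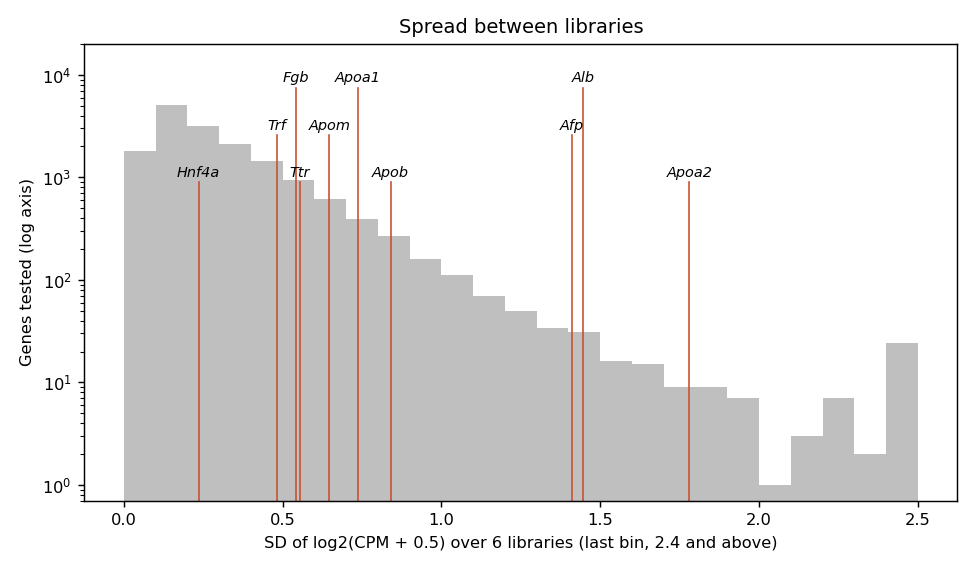
Histogram of the SD of log2(CPM + 0.5) over the 6 libraries for the 16353 genes tested, with the number of genes on a log axis and the 10 liver genes as vertical lines whose heights only separate the names. *Apoa2*, *Alb* and *Afp* stand in the right tail at 1.41 to 1.78, and *Hnf4a* at 0.24 is near the median of 0.237.

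Of the 10 members, 6 were lowest in KO replicate 2, where 21.6% of all genes tested were lowest, and 7 were highest in KO replicate 3, where 17.1% were highest. The median of the other libraries over KO replicate 2 was 8.79-fold for *Afp*, 11.4-fold for *Alb*, 2.57-fold for *Apom*, 2.16-fold for *Fgb* and 1.71-fold for *Trf*. For *Ttr*, KO replicate 2 was 2.19-fold above the median of the others. The mesenchyme and endothelial sums were also lowest in KO replicate 2. WT replicate 2 had the second lowest mesenchyme sum and the second highest member sum. KO replicate 3 had the second highest mesenchyme sum and the highest member sum. WT replicate 3, with the most erythroid RNA, had the lowest member sum in WT. KO replicate 1, with the second most, had the middle member sum in KO. The part of other cells in the levels of the liver genes was not tested.

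**Figure D4:**
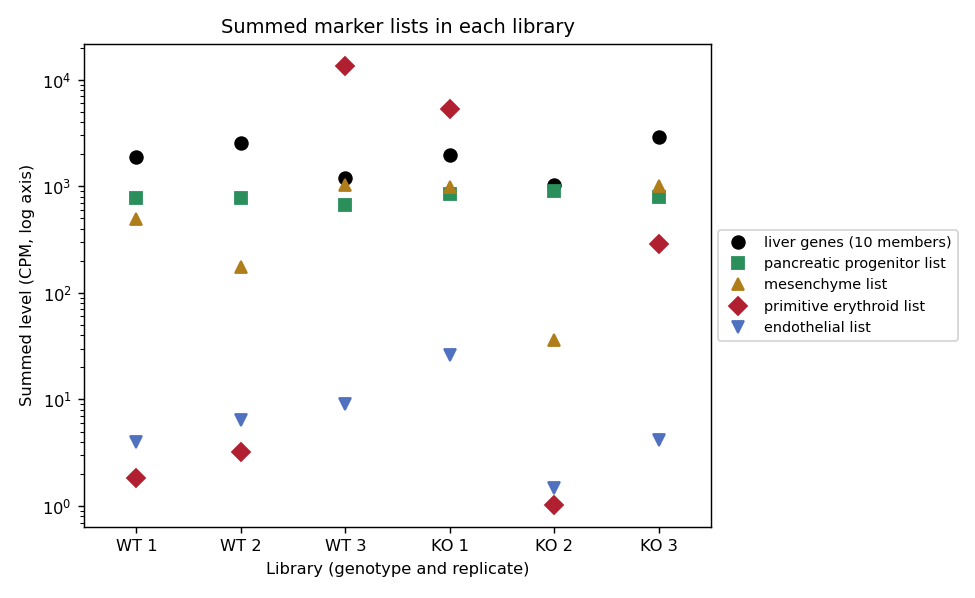
Summed level in CPM (log axis) of the 10 liver genes and of the pancreatic progenitor, mesenchyme, primitive erythroid and endothelial marker lists in each of the 6 libraries. KO replicate 2 has the lowest sum of liver, mesenchyme, erythroid and endothelial genes and the highest pancreatic sum, and the pancreatic sums stay between 673 and 900 CPM. The pancreatic sum includes *Gata4*, which is higher in every KO library than in any WT library.

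Most members had their high and their low values in the same libraries. With the mean of the other members, the correlation of log2 levels over the 6 libraries was 0.97 for *Apom*, 0.95 for *Alb*, 0.94 for *Afp*, 0.88 for *Apoa2* and *Trf*, 0.79 for *Fgb* and 0.72 for *Apoa1*. It was 0.44 for *Apob*, 0.12 for *Hnf4a* and -0.50 for *Ttr*. These values describe the same 6 libraries of both genotypes, with KO replicate 2 far from the rest. *Afp* and *Apom* were closest as a pair (0.99). The members' mean log2 level, centred per gene, was 0.10, 0.65 and -0.35 in WT replicates 1 to 3 and -0.02, -1.10 and 0.72 in KO replicates 1 to 3.

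Outside the members, 226 genes (1.38% of those tested) had a correlation of 0.9 or more with that mean. The 10 highest were *B4galnt2* (0.994), *Ctc1*, *Hecw2*, *Mttp*, *Serpina6*, *Ndrg4*, *Oprl1*, *Lcat*, *Kcnt2* and *Fancg* (0.985). A correlation does not measure the size of a change. *B4galnt2* ran from 2.34 to 15.8 CPM over the libraries, but *Ctc1* only from 231 to 275 CPM and *Fancg* from 28.0 to 38.7 CPM. *Mttp*, which loads lipid onto apolipoprotein B, was at 48.5, 61.8 and 39.6 CPM in WT and 44.7, 31.3 and 65.95 CPM in KO. *Serpina6*, the corticosteroid-binding globulin, was at 64.9, 118 and 49.2 CPM in WT and 50.2, 19.3 and 131 CPM in KO. *Lcat*, which esterifies cholesterol on lipoproteins, was low, at 0.741 to 5.93 CPM.

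A list of 22 further secreted liver protein genes behaved in a mixed way. Of the 16 tested, 2 were higher and 14 lower in KO by the fit, with a median log2 fold change of -0.26, and edgeR and DESeq2 called 0 of them. The 3 most abundant were *Ambp* (767 to 1168 CPM), *Rbp4* (631 to 1236 CPM) and *Vtn*. *Vtn*, which encodes vitronectin, was at 678, 549 and 458 CPM in WT and 426, 432 and 428 CPM in KO, and was the 1 gene of the list with an unadjusted p under 0.05 (log2 fold change -0.39, standard error 0.14, edgeR adjusted p = 0.368). Of the 16, 9 were lowest in KO replicate 2 and 6 highest in KO replicate 3.

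Some genes of the list, picked after their values were seen, shared the low value of *Alb* and *Apoa2* in KO replicate 2. *Fga*, the alpha chain of fibrinogen, was at 26.0, 36.3 and 13.1 CPM in WT and 15.8, 1.88 and 35.0 CPM in KO. *Itih2*, a heavy chain of inter-alpha-trypsin inhibitor, was at 148 to 340 CPM in the other libraries and 24.9 CPM there. *Serpinc1*, the gene of antithrombin, had 0 counts there, where 3 counts would be 0.171 CPM, and 10.2 to 26.6 CPM in the others. *Gc*, the vitamin D carrier, was not low there, at 193, 76.5 and 83.9 CPM in WT and 48.1, 175 and 46.0 CPM in KO. The chains of fibrinogen were thus not equally low in KO replicate 2, with the other libraries a median 13.8-fold higher for *Fga*, 3.70-fold for *Fgg* and 2.16-fold for *Fgb*. *Serpina1a* and *Serpina1b* are near-identical copies, and their values are uncertain.

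**Figure D5:**
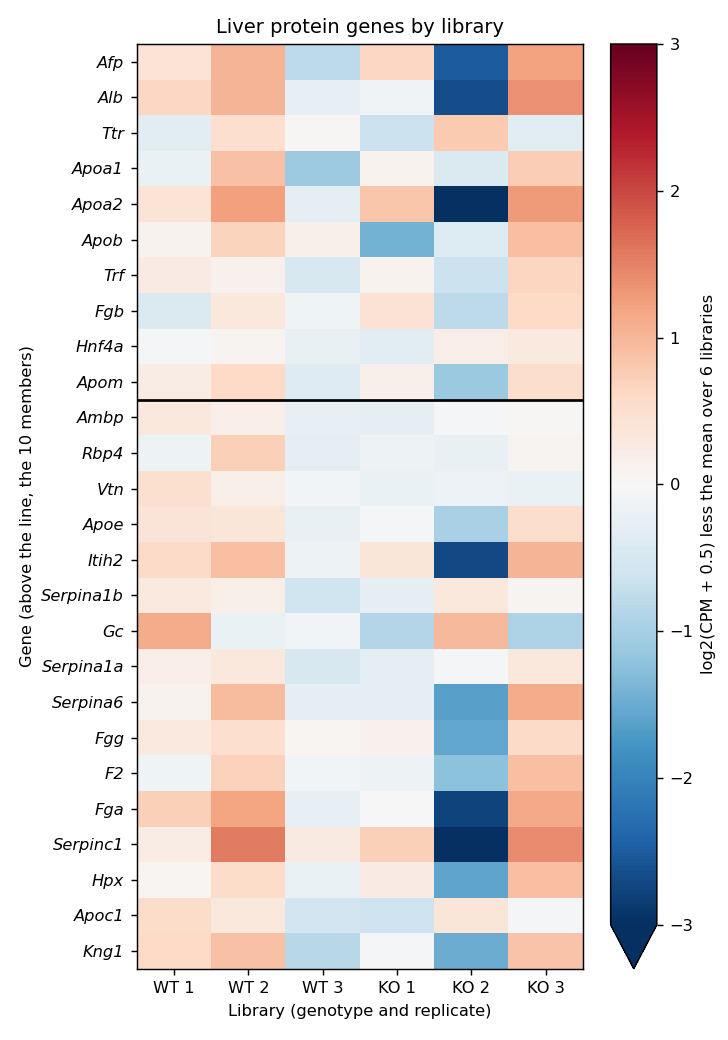
Level of the 10 liver genes (above the line) and of the 16 other secreted liver protein genes tested, as log2(CPM + 0.5) less the gene's mean over the 6 libraries, in each library (colour scale stopped at -3). KO replicate 2 is dark blue for *Afp*, *Alb*, *Apoa2*, *Itih2*, *Fga* and *Serpinc1*, and red for *Ttr* and *Gc*.

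The transcription factors of the liver were listed separately from *Hnf4a*. A list of 17 of them summed to 934 to 1099 CPM in WT and 1020 to 1128 CPM in KO. Of the 16 tested, 8 were higher and 8 lower in KO, edgeR called 0 and 4 had an unadjusted p under 0.05, 3 of them higher. Over all genes tested, 10.4% had an unadjusted p under 0.05. *Gata6* was at 10.4, 18.7 and 11.8 CPM in WT and 42.8, 29.8 and 30.4 CPM in KO (log2 fold change 1.33, standard error 0.26, edgeR adjusted p = 0.132). *Gata4* was at 173, 249 and 222 CPM in WT and 342, 334 and 322 CPM in KO (0.63, standard error 0.13, edgeR adjusted p = 0.140). DESeq2 called both, with adjusted p = 3.5e-05 and 0.000919, and they are the 2 called by it in the list, beside 4.87% of all genes. Both factors also serve pancreatic progenitors and stand on that marker list. *Foxa1* was at 10.7 to 13.1 CPM in WT and 14.4 to 19.9 CPM in KO, with an edgeR adjusted p of 0.339. The abundant *Prox1* and *Foxa2* overlapped between the genotypes. *Tbx3*, a factor of hepatoblast outgrowth chosen after its values were seen, was at 2.68 CPM in KO replicate 2 and at 14.2 to 40.1 CPM in the others.

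The 10 hepatoblast surface and secretion genes, most of them shared with other endoderm, had similar sums in all libraries, to which *Krt8*, *Dlk1* and *Krt18* gave most. They summed to 3235 to 3837 CPM in WT and 3440 to 3720 CPM in KO, with 7 higher and 3 lower in KO and 0 called by either tool. *Krt8* was at 1086 to 1232 CPM over all libraries and *Dlk1*, a hepatoblast surface protein, at 831 to 1279 CPM. *Krt18* was the 1 gene with an unadjusted p under 0.05 (log2 fold change 0.23, standard error 0.09, edgeR adjusted p = 0.418). *Slc2a2*, the glucose transporter of liver and early pancreas, was at 47.0, 55.2 and 24.5 CPM in WT and 22.7, 14.1 and 35.2 CPM in KO, with an edgeR adjusted p of 0.549.

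Yolk sac endoderm also makes *Afp*, *Ttr* and apolipoproteins, so 7 markers of it were read. Of the 5 tested, 1 was higher and 4 lower in KO, 0 were called by either tool, and *Cubn* had an unadjusted p under 0.05. *Amn*, *Cubn*, *Rhox5* and *S100g* were at most at 1.74 CPM in any library. *Cited1* (77.7 to 194 CPM) and *Dab2* (16.2 to 65.5 CPM) carried most of the sum of 160 to 261 CPM in WT and 96.5 to 196 CPM in KO. The sum was lowest in KO replicate 2, as for *Afp*.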

How the data were processed

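Messenger RNA from sorted *Pdx1* lineage cells at E10.5 was measured in 6 libraries, 3 WT and 3 KO, grouped by the genotype and replicate in the labels. The SMART-seq v4 kit gave the cDNA and Nextera XT the libraries, which keep no strand. The authors removed low-quality sequences, aligned reads to GRCm39 with STAR, counted reads on genes (GenomicAlignments) and deposited these counts as whole numbers, not normalized. Tool versions, the annotation and the handling of shared reads are not given in the sources used here. Symbols were found for 93.99% of the 55414 identifiers.

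Counts were tested with edgeR 4.0.16 in R 4.3.3 (filterByExpr, TMM factors, glmQLFit and glmQLFTest at their defaults, genotype as the only term), with Benjamini-Hochberg adjustment over the 16353 genes tested and calls at an adjusted p under 0.05. The fit had 4 residual and 3.26 prior degrees of freedom. The standard error is the size of the log2 fold change over the square root of F. DESeq2 1.42.0 was run at its defaults as an alternative on genes with at least 1 count. CPM are counts per 1000000 counts of the TMM-scaled library, with a pseudocount of 0.5 for log2 levels. Lengths and 3′UTRs came from GENCODE M21, built on GRCm38, and promoters and microRNAs from RefSeq. No genome of the build of the files was used, and the coordinates and distances printed for promoters are those of RefSeq in GRCm38.p6. The fits were tested on simulated counts.

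The members and the gene lists were chosen with earlier results of these data known. All 10 members are described. For other lists, the 3 genes highest in mean CPM and the 3 with the smallest p-values could be named. Further genes are marked as picked later, apart from the hepatoblast markers, genes named for being low in all libraries, and *Serpina1a* and *Serpina1b*. The closest genes in pattern are the 10 with the highest correlation to the members' mean. Alternatives changed the tool, the scaling, the filter, the estimate of the spread, a block for the replicate number, a term for the leading digit of the code of each library, and the libraries. Replicates of one number did not deviate together over the genes tested, so the numbers were not taken as pairs. Total counts of 17352498 to 26634523 leave low genes with counting error, and a count of 0 allows up to 3.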

Additional observations from a re-analysis of the deposited data

How the results depend on the processing

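Over 13 alternative settings, 0 members were called in any, and the smallest adjusted p of a member was 0.272, for *Apob*. The count over all genes rose from 0 to 699 with DESeq2 and to 264 without a filter on low counts, and ran from 0 to 217 when 1 library was left out, the 217 being without WT replicate 2. With WT replicate 3 and KO replicate 1 left out together, 1 member (*Hnf4a*) did not overlap between the genotypes, beside 32.6% of all genes, and 0 to 1 did not when 1 library was left out. These were *Hnf4a* without KO replicate 1 (23.3% of all genes), *Fgb* without KO replicate 2 (28.7%) and *Apob* without KO replicate 3 (27.8%). That count rests on scaled levels and has no separate value under the block, the code term, the newer spread estimate or no filter. The cause of these changes was not tested.

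The sign of the log2 fold change turned in some setting for 8 of the 10 members, and never for *Fgb* (0.03 to 0.58) and *Hnf4a* (0.05 to 0.31) when 1 library was left out. The ranges on leaving out 1 library were -0.57 to 0.58 for *Afp*, -1.43 to 0.26 for *Alb*, -0.58 to 0.24 for *Ttr*, -0.19 to 0.82 for *Apoa1*, -0.65 to 0.50 for *Apoa2*, -1.16 to 0.070 for *Apob*, -0.18 to 0.42 for *Trf* and -0.50 to 0.17 for *Apom*. The sign turned without WT replicate 2 (*Alb*, *Ttr*, *Apoa2*, *Apom*), WT replicate 3 (*Afp*, *Apoa1*, *Trf*), KO replicate 1 (*Afp*, *Ttr*, *Apob*), KO replicate 2 (*Alb*, *Apoa2*, *Apom*) and KO replicate 3 (*Afp*, *Ttr*, *Apoa1*, *Trf*). The members' median ran from -0.34 to 0.32. Without WT replicate 3 and KO replicate 1 together, *Afp* was at -0.40, *Ttr* at 0.20, *Apoa1* at -0.15, *Apob* at 0.00053 and *Trf* at -0.018. With a term for the leading digit of each library's code, *Apoa2* was at 0.29 and *Apom* at 0.024.

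Same-numbered WT and KO libraries had correlations of deviations of -0.21, 0.29 and 0.08. Those of differently numbered libraries ran from -0.32 to 0.35, so no pairing by number was seen. With the replicate block, 0 genes and 0 members were called, the median of the members was -0.19 and *Afp* turned to -0.25. With 3 libraries a genotype and this spread, only large differences of *Afp*, *Alb* and *Apoa2* could have been detected.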
